A study of Homo sapiens with 18 samples.

Results

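Cholesterol synthesis and its control by the sterol regulatory element binding proteins (SREBPs) were examined in HCT116 cells, a human colorectal carcinoma line, as the cultures grew past a monolayer. The gene set was chosen by symbol, with earlier results of these data known, and held 28 genes. Of these, 27 had a row among the 38055 genes of the whole transcriptome table. No value is given for ACACA, which matched no row by its symbol. The 27 genes were 19 enzymes of the pathway, 5 genes of SREBP control, the sterol carrier STARD4 and the fatty acid enzymes FASN and SCD.

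All cells were wild-type HCT116 grown in McCoy's 5A medium with fetal bovine serum, without a drug or an engineered allele. Whole transcriptome values came from 3 biological replicates on day 3 after seeding, at 50% confluency, and 3 on day 5, at 250% confluency. Mature miRNA values came from 3 replicates each of the same days and of day 7, labelled 400% confluency. A confluency above a full monolayer means stacked layers of cells. The study's methods state that the medium was renewed daily from day 2 of its high-density cultures. Each day had its own density, so density and time in culture cannot be told apart. The cultures are of a single line.

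Cells make cholesterol from acetyl-CoA by way of mevalonate, squalene and lanosterol. SREBF1 and SREBF2 encode the membrane-bound precursors of the transcription factors that switch the pathway on. When sterols are scarce, SCAP escorts the precursors from the endoplasmic reticulum to the Golgi, where proteases free the active part. When sterols are plentiful, INSIG1 and INSIG2 hold SCAP and its cargo back. SREBP-2 is best known for the cholesterol genes and SREBP-1 for the fatty acid genes, and INSIG1 is itself a classical SREBP target.

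RNA of the gene set was more abundant at high density. Limma with Benjamini-Hochberg adjustment called 20 of the 27 genes higher on day 5, 1 lower and 6 neither, at an adjusted p under 0.05. Over all 20129 genes tested, the same test called 56.9% in either direction, 29.3% higher and 27.6% lower, so the transcriptome as a whole moved a great deal between these days. The median log2 fold change was 0.90 over the 27 genes and 0.01 over all genes tested. The 3 libraries of each day did not overlap for 26 of the 27 genes, 23 of them with day 5 above day 3 and 3 with day 5 below. Over all genes tested, 33.4% lay wholly above and 31.7% wholly below. A rise of at least 2-fold that passed the test was found for 10 of the 27 genes and for 10.2% of all genes.

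The summed signal of the 27 genes took 0.210%, 0.228% and 0.216% of all gene signal in the day 3 libraries, and 0.586%, 0.604% and 0.489% in the day 5 libraries. FASN and SCD carried much of this sum. Without them, the share was 0.145%, 0.148% and 0.137% on day 3 and 0.258%, 0.268% and 0.227% on day 5. With or without the pair, each day 5 library lay above each day 3 library. The plot of signal by library shows the values gene by gene, with day 5 wholly above day 3 for 23 genes and wholly below for 3.

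**Figure D1:**
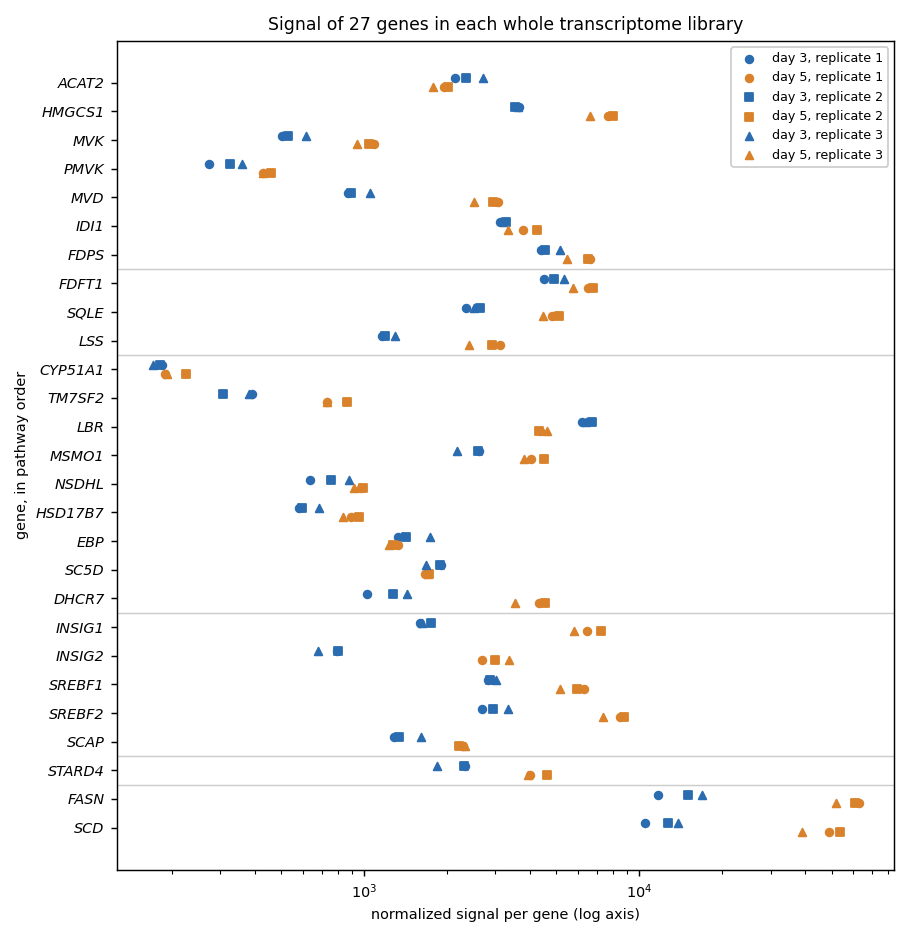
Normalized signal (log axis) of 27 genes in the 3 day 3 libraries (blue) and the 3 day 5 libraries (orange), 1 marker shape per replicate number. Genes run in pathway order from ACAT2 to DHCR7, then SREBP control, STARD4, FASN and SCD, and grey lines part the groups. The 2 days are separate for every gene but SC5D.

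A few sequences around the start sites of the members show the motifs that SREBPs and their partner factors are known to bind. NF-Y, a CCAAT-binding factor, and Sp1 are the usual partners of SREBPs at sterol-responsive promoters. Promoters of RefSeq genes on GRCh38.p14, from 250 bases before to 50 bases after each start, were found for 23 of the 27 genes. No entry was matched for ACAT2, FDFT1, SQLE or FASN. Both strands were searched. The letters TCACNCCAC, which spell a sterol regulatory element, lay in the promoter of 1 gene, SREBF2. They were found for 1.39% of all genes and in 1.13% of all 35097 promoters. Other spellings of the element were not searched, so genes without these letters may still carry one. The CCAAT box was found for 17 of the 23 genes, against 39.7% of all genes and 34.6% of all promoters. It was present for 13 of the 17 genes that rose and for 4 of the 6 that did not. The Sp1 letters GGGCGG were found for 21 of the 23 genes and 48.3% of all genes, and the palindromic E-box CACGTG for 4 genes and 8.77% of all genes. The shares of all genes cover 27305 genes with a promoter entry, whether or not expressed in these cells. They are therefore not a matched background for the expressed genes of the set. These matches are letters in a window and do not show binding.

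Windows of 30 bases around a match follow for SREBF2 and for enzymes and a regulator that rose at least 2-fold, each on the strand of its gene, with the match in capitals. The SREBF2 windows hold the sterol regulatory element letters, starting 133 bases before the start site (chr22:41832962-41832991, GRCh38.p14, plus strand), and a CCAAT box in reverse, ATTGG, starting 106 bases before it (chr22:41832987-41833016). The INSIG1 window (chr7:155297696-155297725, plus strand) begins its match 170 bases before the start site. The matches of MVD (chr16:88663159-88663188, minus strand), DHCR7 (chr11:71448424-71448453, minus strand) and HMGCS1 (chr5:43313495-43313524, minus strand) begin 85, 48 and 100 bases before it.
SREBF2 sterol regulatory element: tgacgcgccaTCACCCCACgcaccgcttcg
SREBF2 CCAAT box: cttcgctcgcccATTGGctgagatgagcct
INSIG1 CCAAT box: cgccggcctcccATTGGttgcggccgcctc
MVD CCAAT box: ggctcgcacgggCCAATcctgtggtagcgc
DHCR7 CCAAT box: ggtccgcctccgATTGGcaggcaatcgctg
HMGCS1 CCAAT box: ctaccggccgcgATTGGctgtgggagccac

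The mevalonate arm builds the isoprenoid units from acetyl-CoA. Of its 7 genes, 5 rose and 2 passed in neither direction, with a median log2 fold change of 0.46. The background over all genes was 29.3% higher and 27.6% lower, with a median of 0.01. ACAT2, which joins acetyl-CoA units at the entry to the pathway, had signals of 2143, 2337 and 2695 on day 3 and 1958, 2010 and 1774 on day 5. All day 5 values lay below all day 3 values, but the log2 difference of -0.32 (SE 0.11) had an adjusted p of 0.0529 (limma). Without day 3 replicate 1 ACAT2 was called lower (adjusted p = 0.0349, limma), as it was by edgeR and DESeq2. HMGCS1 makes the hydroxymethylglutaryl-CoA from which mevalonate is formed. Its signal was 3643, 3547 and 3613 on day 3 and 7673, 8025 and 6622 on day 5. The 3 day 3 libraries were nearly equal, and HMGCS1 rose 2.06-fold (log2 1.04, SE 0.10, adjusted p = 0.00042, limma).

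MVK and PMVK phosphorylate mevalonate in turn. MVK had signals of 504, 528 and 615 on day 3 and 1087, 1038 and 941 on day 5, a rise of 0.90 on the log2 scale (SE 0.11). PMVK had 274, 325 and 360 on day 3 and 428, 460 and 428 on day 5, a smaller rise of 0.46 (SE 0.12, adjusted p = 0.0173, limma). For PMVK the highest day 3 library came close to the lowest day 5 library. The adjusted p of PMVK was 0.0594 without day 5 replicate 2 and 0.0723 with no filter (limma).

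MVD, on chromosome 16 (GRCh38, 88651935 to 88663161, minus strand), encodes the decarboxylase that yields isopentenyl pyrophosphate. Its signal was 875, 895 and 1052 on day 3 and 3064, 2927 and 2511 on day 5. These values lay far apart, and the rise of 3.01-fold (log2 1.59, 95% interval 1.30 to 1.88, adjusted p = 0.00026, limma) had the highest point estimate of the arm.

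IDI1, which interconverts the isoprenoid isomers, had 3119, 3279 and 3256 on day 3 and 3776, 4251 and 3329 on day 5. Day 5 replicate 3 lay just above the day 3 libraries, and the difference of 0.23 did not pass (95% interval -0.04 to 0.49, adjusted p = 0.121, limma). FDPS joins the units into farnesyl pyrophosphate, from which sterols and protein prenyl groups both derive. Its signal was 4395, 4539 and 5169 on day 3 and 6609, 6490 and 5466 on day 5. FDPS rose by 0.40 on the log2 scale (SE 0.11, adjusted p = 0.0265, limma). The call was lost without day 3 replicate 1 or 2, or day 5 replicate 1 or 2 (adjusted p 0.0739 to 0.0857, limma). It was also lost with no filter (adjusted p = 0.1025, limma) and with a replicate block (adjusted p = 0.0797, limma).

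The committed sterol steps, from farnesyl pyrophosphate to lanosterol, rose at each of the 3 enzymes, against 29.3% of all genes tested. FDFT1, squalene synthase, had 4508, 4881 and 5324 on day 3 and 6507, 6813 and 5751 on day 5. Its log2 rise of 0.37 (SE 0.11, adjusted p = 0.0250, limma) was small. The call was lost without day 3 replicate 1 or 2, or day 5 replicate 1 or 2 (adjusted p 0.0662 to 0.0848, limma). It was also lost with no filter (adjusted p = 0.1031, limma) and with a replicate block (adjusted p = 0.0705, limma).

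SQLE, squalene epoxidase, a known control point of the sterol branch, had 2347, 2630 and 2505 on day 3 and 4813, 5105 and 4459 on day 5. Its rise was 1.92-fold (log2 0.94, SE 0.09, adjusted p = 0.00046, limma). LSS, which folds the epoxide into lanosterol, had 1157, 1192 and 1293 on day 3 and 3117, 2923 and 2402 on day 5. LSS rose 2.31-fold (log2 1.21, SE 0.12, adjusted p = 0.00052, limma), although day 5 replicate 3 stood below the other two.

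The arm from lanosterol to cholesterol moved unevenly. Of its 9 enzymes, 4 rose, 1 fell and 4 passed in neither direction, with a median log2 fold change of 0.36. With so few genes, these counts do not stand far from the 29.3% higher and 27.6% lower over all genes. CYP51A1, lanosterol demethylase, had a signal of 183, 181 and 170 on day 3 and 189, 225 and 193 on day 5, with a difference of 0.18 (95% interval -0.06 to 0.42, adjusted p = 0.165, limma). Its level is uncertain, because reads may be divided with the processed pseudogenes that carry its name. CYP51A1P2, the highest of the 3, had mean signals of 41.8 and 51.7 on the 2 days. In GENCODE release 44 another same-strand gene model covers 68.2% of its exon bases, but that model had no row in the table.

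TM7SF2 and LBR both have sterol reductase activity at the step after the demethylase, and they moved in opposite directions. TM7SF2 had 392.5, 308 and 381 on day 3 and 732, 865 and 730 on day 5, a rise of 2.15-fold (log2 1.11, 95% interval 0.79 to 1.43, adjusted p = 0.00086, limma). LBR, also the lamin B receptor of the inner nuclear membrane, had 6178, 6743 and 6399 on day 3 and 4355, 4316 and 4632 on day 5. All LBR values of day 5 lay below those of day 3, and LBR fell by 0.54 on the log2 scale (95% interval -0.73 to -0.35, adjusted p = 0.0018, limma). LBR was the only one of the 27 genes called lower by this fit. Per kb of exon, the mean level of LBR was 10.7 times that of TM7SF2 on day 3 and 3.41 times on day 5. By this measure LBR remained the more abundant RNA on both days. The length used joins all annotated exons of a gene, so ratios between genes depend on the annotation. LBR lies on chromosome 1 (GRCh38, 225401502 to 225428925, minus strand) and TM7SF2 on chromosome 11 (65111845 to 65116384, plus strand).

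MSMO1, NSDHL and HSD17B7 remove the methyl groups of the sterol nucleus. MSMO1 had 2610, 2601 and 2183 on day 3 and 4039, 4508 and 3810 on day 5, and rose 1.67-fold (log2 0.74, SE 0.11). NSDHL had 633, 755 and 877 on day 3 and 976, 994 and 922 on day 5. Its day 3 libraries were spread widely, and the difference of 0.36 (95% interval 0.04 to 0.69) did not pass after adjustment (adjusted p = 0.0574, limma). It was called higher without day 3 replicate 3 (adjusted p = 0.0152, limma) and by edgeR and DESeq2. HSD17B7 had 578, 597 and 683 on day 3 and 895, 956 and 841 on day 5, a rise of 0.54 (SE 0.10). A pseudogene copy, HSD17B7P2, had mean signals of 182 and 350 on the 2 days, and reads may be divided between the copies.

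EBP and SC5D rearrange and desaturate the sterol ring. EBP had 1324, 1423 and 1729 on day 3 and 1322, 1270 and 1226 on day 5, with a difference of -0.22 (95% interval -0.51 to 0.07). SC5D had 1898, 1889 and 1683 on day 3 and 1664, 1722 and 1705 on day 5, with a difference of -0.10 (95% interval -0.30 to 0.10), and was the only gene of the set whose libraries overlapped between days. Neither passed the test. In GENCODE release 44 EBP shares 36.4% of its exon bases with another same-strand gene model, which had no row in the table.

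DHCR7, the reductase of a last step that gives cholesterol, had 1023, 1277 and 1426 on day 3 and 4302, 4544 and 3544 on day 5. The lowest day 5 library was well above the highest day 3 library, and DHCR7 rose 3.34-fold (log2 1.74, 95% interval 1.35 to 2.13, adjusted p = 0.00042, limma). DHCR7 and MVD had the highest fold changes among the 19 enzymes. Between them in pathway order, FDPS, FDFT1, SQLE, LSS, TM7SF2, MSMO1 and HSD17B7 also rose, LBR fell, and IDI1, CYP51A1, NSDHL, EBP and SC5D did not pass. DHCR7 lies on chromosome 11 (GRCh38, 71428193 to 71452868, minus strand).

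**Figure D2:**
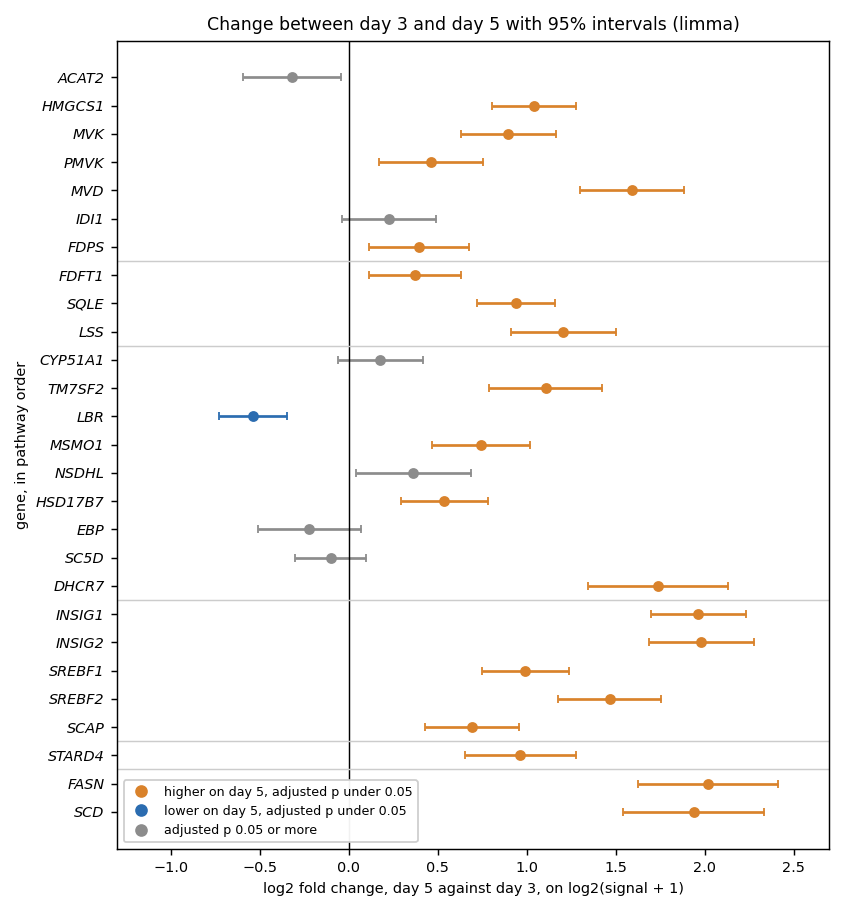
Log2 fold change of day 5 against day 3 with its 95% interval for 27 genes in pathway order (limma on log2(signal + 1), 3 libraries a day). Orange genes were called higher, the blue gene (LBR) lower and grey genes neither, and values run from -0.54 for LBR to 2.02 for FASN.

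All 5 genes of SREBP control rose, against 29.3% of all genes tested. Their median log2 fold change was 1.47, against 0.01. SREBF2 (chromosome 22, GRCh38, 41833105 to 41907306, plus strand) had 2684, 2942 and 3323 on day 3 and 8521, 8792 and 7375 on day 5. Its rise was 2.76-fold (log2 1.47, 95% interval 1.18 to 1.75, adjusted p = 0.00030, limma). SREBF1 (chromosome 17, 17810399 to 17837002, minus strand) had 2813, 2876 and 3021 on day 3 and 6273, 5959 and 5152 on day 5. Its rise was 1.99-fold (log2 0.99, 95% interval 0.75 to 1.24, adjusted p = 0.00052, limma). Both genes were clearly separated between days. Per kb of exon, the mean level of SREBF2 was 1.05 times that of SREBF1 on day 3 and 1.45 times on day 5. These are RNA levels, and the amount of cleaved protein was not measured.

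INSIG1 and INSIG2 encode the retention proteins that oppose SREBP activation. INSIG1 (chromosome 7, 155297776 to 155310235, plus strand) had 1592, 1756 and 1619 on day 3 and 6439, 7250 and 5775 on day 5, a rise of 3.90-fold (log2 1.96, 95% interval 1.70 to 2.23, adjusted p = 0.00017, limma). INSIG2 (chromosome 2, 118088452 to 118110997, plus strand) had 799, 804 and 679 on day 3 and 2683, 2988 and 3359 on day 5, a rise of 3.95-fold (log2 1.98, 95% interval 1.69 to 2.28, adjusted p = 0.00019, limma). The paralogs moved by nearly equal amounts. The level of INSIG1 per kb was 2.36 times that of INSIG2 on day 3 and 2.33 times on day 5. INSIG2 differed from most of the set in its library order, since its highest day 5 value was in replicate 3, where 22 of the 27 genes had their lowest.

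SCAP, the escort, had 1281, 1335 and 1613 on day 3 and 2286, 2210 and 2316 on day 5. It rose 1.62-fold (log2 0.69, SE 0.11, adjusted p = 0.0025, limma), the lowest point estimate of the 5 control genes. STARD4, a soluble carrier that moves sterol between membranes, had 2322, 2314 and 1841 on day 3 and 4017, 4633 and 3945 on day 5. The values did not overlap, and STARD4 rose 1.95-fold (log2 0.96, SE 0.13, adjusted p = 0.0013, limma).

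The fatty acid enzymes had the highest levels of the set, per gene and per kb. FASN (chromosome 17, 82078338 to 82098294, minus strand), which builds palmitate, had signals of 11683, 15070 and 16893 on day 3 and 62911, 60605 and 51971 on day 5. It rose 4.05-fold (log2 2.02, 95% interval 1.63 to 2.41, adjusted p = 0.00029, limma). SCD (chromosome 10, 100347233 to 100364826, plus strand), which desaturates stearate to oleate, had 10459, 12703 and 13779 on day 3 and 48918, 53817 and 39142 on day 5. It rose 3.83-fold (log2 1.94, 95% interval 1.54 to 2.33, adjusted p = 0.00033, limma). FASN, INSIG2, INSIG1 and SCD were the 4 members with the highest fold changes, at or above the 98.6th percentile of all genes tested. A pseudogene of SCD, SCDP1, had mean signals of 49.9 and 223 on the 2 days.

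Per kb of exon, with lengths from GENCODE release 44, mean levels on day 3 ran from 42.7 for CYP51A1 to 2348 for SCD, followed by FASN at 1561, FDPS at 1264 and LBR at 1128. On day 5 SCD reached 9017 and FASN 6276, and INSIG1 took the third place at 1777, from the twelfth on day 3. FDPS followed at 1664 and MSMO1 at 1444, while LBR stood at 777. By this measure, which depends on the annotated exon length, CYP51A1 and MVK remained the lowest pair on both days.

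**Figure D3:**
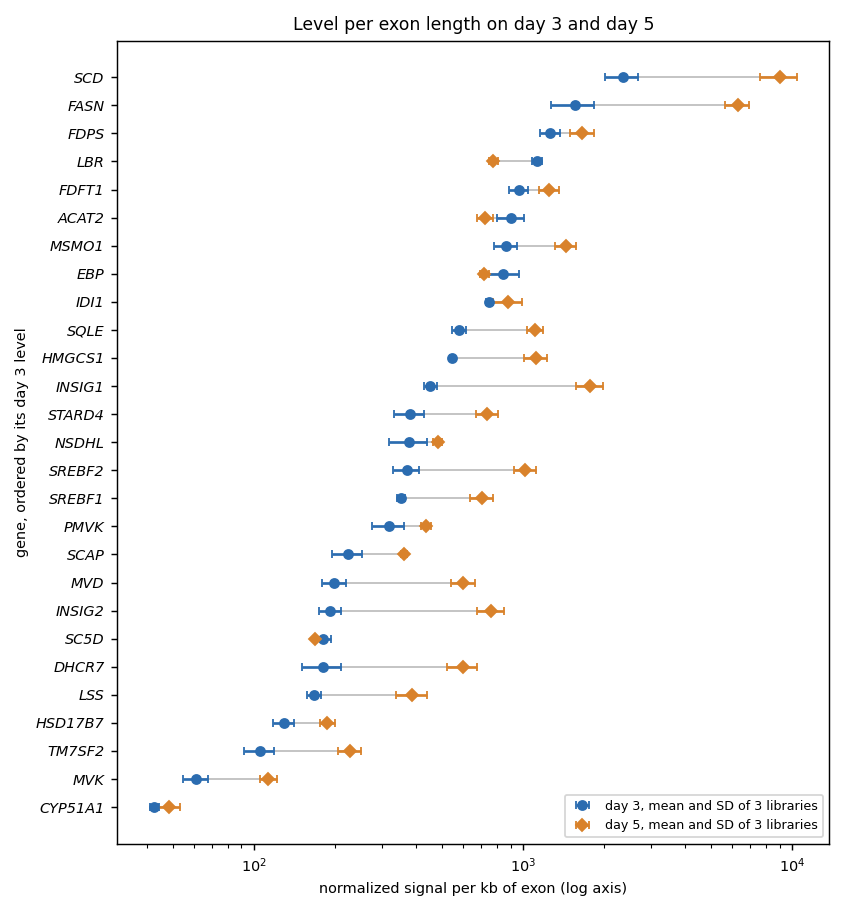
Mean normalized signal per kb of exon (log axis) on day 3 (blue circles) and day 5 (orange diamonds), with the SD of 3 libraries as error bars and genes ordered by the day 3 level. SCD and FASN lead on both days, and INSIG1 moves from 454 to 1777.

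The reads behind these values were many. Recovered reads per library were 27470978 to 56689369, and the lowest read count of any of the 27 genes in a library was 120. In GENCODE release 44, 17 pseudogenes are named after CYP51A1, FDPS, HSD17B7, IDI1 or SCD, and reads of such copies may be divided between them. Exons of 11 genes of the set overlap a gene on the opposite strand, and the counting was by strand. Library profiles correlated at 0.988 to 0.993 within a day and 0.955 to 0.964 between days (Pearson, across genes, a description of these libraries). Day 5 replicate 3 held the lowest day 5 value of 22 of the 27 genes and day 3 replicate 1 the lowest day 3 value of 20. The median log2 difference of the set from the day 3 mean was 0.90, 0.92 and 0.78 in the day 5 libraries, against 0.02 to 0.03 over all genes. The epithelial genes EPCAM, CDH1, KRT8, KRT18 and KRT19 were all detected in every library. EPCAM had mean signals of 7227 and 7236 on the 2 days, whereas 4 of the 5 rose with the gene set, CDH1 from 637 to 3940, KRT8 from 19250 to 39070, KRT18 from 9861 to 18502 and KRT19 from 8215 to 31867. The part of this epithelial change in the results was not tested. By contrast, the intestinal genes CDX1 and VIL1 were at or near 0. Of 9 markers of fibroblast, immune and endothelial cells, 7 had a row. Their summed signal was 512 to 586 on day 3 and 1108 to 1175 on day 5, nearly all of it COL1A1. Without COL1A1 the sums were 20.2 to 28.4 and 16.3 to 26.9, and DCN, PTPRC, CD3E, CD68 and CDH5 were at or near 0. The part of COL1A1-expressing cells in the results was not tested. In bulk RNA a change in the share of cells with a transcript and a change in its amount per cell cannot be told apart.

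The wider list of fatty acid synthesis and SREBP-1 linked genes followed the direction of FASN and SCD in part. Like the other lists, it was chosen with earlier results of these data known. Of 20 genes tested, 11 rose, 2 fell and 7 passed in neither direction, with a median log2 fold change of 0.33 against 0.01 over all genes, where 29.3% rose and 27.6% fell. ACSS2, which makes acetyl-CoA from acetate, had the largest rise, from a mean signal of 933 to 4440 (log2 2.24, SE 0.12, adjusted p = 0.00017, limma). LPIN1, a phosphatidate phosphatase, went from 924 to 2407 (log2 1.38). GPAM, the mitochondrial acyltransferase of glycerolipid synthesis, fell from 3360 to 1681 (0.499 times, adjusted p = 0.00034, limma). ACSL3, an acyl-CoA synthetase, fell from 7629 to 6157 (log2 -0.31), a call that 5 of 12 alternatives lost.

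Among the genes that draw on mevalonate for other products, 2 of 14 rose, 5 fell and 7 passed in neither direction, with a median of -0.21. These counts are small, against 29.3% higher and 27.6% lower over all genes, and the count that fell lies near its share. FNTB, the beta subunit of farnesyltransferase (log2 0.85), and RABGGTA, the alpha subunit of the enzyme that prenylates Rab proteins (log2 0.66), rose. PDSS1 (log2 -1.19) and COQ2 (0.501 times its day 3 level), which act in ubiquinone synthesis, fell, as did RABGGTB, the beta subunit partner of RABGGTA (log2 -1.10), the protein prenyltransferase subunit PGGT1B (log2 -0.71) and the tRNA isopentenyltransferase TRIT1 (log2 -0.26). The TRIT1 call was lost under 9 of 12 alternatives. The 2 subunits of the Rab enzyme thus moved in opposite directions, RABGGTB from a mean signal of 13716 to 6399 and RABGGTA from 380 to 598.

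The wider list of SREBP processing and sterol sensing genes gave no common direction. Of 15 genes, 3 rose, 5 fell and 7 passed in neither direction, with a median of -0.15, against 29.3% higher and 27.6% lower over all genes. Neither count of the list stands far from that background. SEC24C, a coat protein of vesicles leaving the endoplasmic reticulum (log2 0.96), MBTPS1, the Golgi protease that makes the initial cut in SREBPs (log2 0.61), and the ubiquitin ligase MARCHF6 (log2 0.37) rose. TMEM147 (log2 -1.09), PAQR3 (log2 -0.75), the ubiquitin ligase RNF139 (log2 -0.57), the coat protein SEC23A (log2 -0.38) and MBTPS2, the protease of the later cut (log2 -0.26), fell. MBTPS1 went from a mean signal of 4679 to 7129 and MBTPS2 from 1532 to 1278. The MBTPS2 call was lost under 7 of 12 alternatives, that of SEC23A under 4 and that of MARCHF6 under 2.

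Genes of sterol uptake, transport, esterification and efflux rose in 14 of 22 cases, fell in 5 and passed in neither direction in 3, with a median of 0.52, against 29.3%, 27.6% and a median of 0.01 over all genes. SCARB1, a receptor for high-density lipoprotein, went from a mean signal of 2304 to 5812 (log2 1.34, SE 0.09, adjusted p = 0.00022, limma). NPC1, which exports cholesterol from lysosomes, went from 1491 to 3757 (log2 1.33, SE 0.11, adjusted p = 0.00029, limma). Its soluble partner NPC2 fell from 1801 to 1166 (log2 -0.62). STARD3NL (log2 -0.96), TMEM97 (log2 -0.68), the cholesterol esterifying enzyme SOAT1 (log2 -0.62) and the lysosomal acid lipase LIPA (log2 -0.25) also fell, the last in a call lost under 9 of 12 alternatives. NPC1 and NPC2, which act together in the lysosome, therefore moved apart, as LBR and TM7SF2 did.

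**Figure D4:**
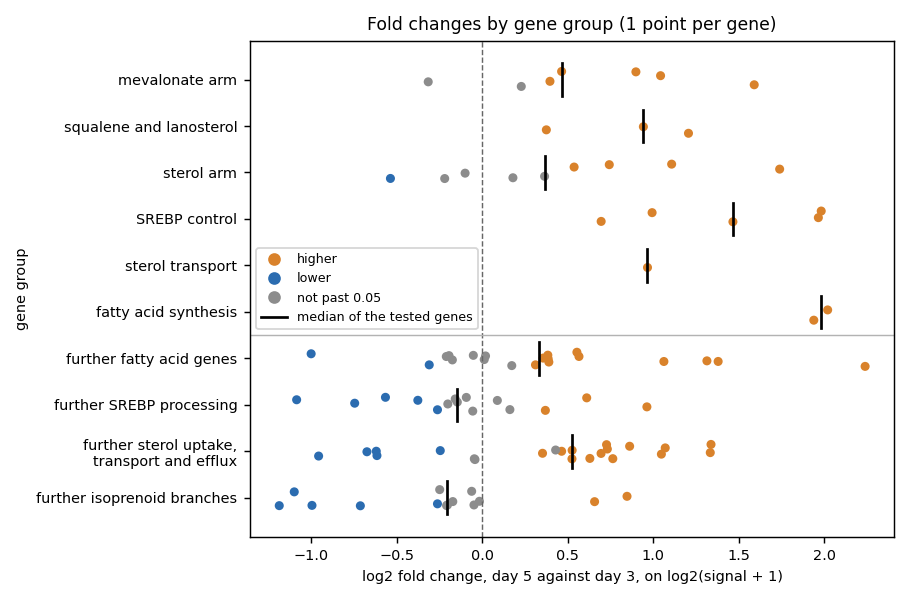
Log2 fold change of day 5 against day 3, 1 point per gene, by gene group, with the 27 genes of the set above the grey line and the 4 further lists below. Black bars are medians, from 0.36 for the sterol arm to 1.98 for FASN and SCD above the line, and from -0.21 for the isoprenoid branches to 0.52 for sterol uptake and transport below it.

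The small RNA libraries also measured the mature miRNAs encoded within the SREBF genes. MIR33A lies within SREBF2 (hairpin at chr22:41900944-41901012, plus strand, GRCh38.p14) and MIR33B within SREBF1 (chr17:17813836-17813931, minus strand), each on the strand of its host and outside its annotated exons. These miRNAs are known to repress cholesterol efflux genes such as ABCA1. The mature arms are printed in RNA letters from RefSeq, with the seed, bases 2 to 8, in capitals, because the seed sets the targets. The 5p arms share the seed UGCAUUG, while the 3p arms differ from them and from each other.
hsa-miR-33a-5p: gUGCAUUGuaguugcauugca
hsa-miR-33b-5p: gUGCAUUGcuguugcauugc
hsa-miR-33a-3p: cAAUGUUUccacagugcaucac
hsa-miR-33b-3p: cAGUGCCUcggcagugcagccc

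On day 5, when the signals of both host genes were higher, none of the 4 arms passed the test. In log2 units as deposited, miR-33a-5p had 8.71, 8.65 and 8.17 on day 3 and 8.74, 8.80 and 8.63 on day 5, a difference of 0.21 (95% interval -0.14 to 0.56). miR-33b-5p had 9.30, 9.28 and 8.69 on day 3 and 9.12, 9.31 and 9.18 on day 5, a difference of 0.11 (95% interval -0.28 to 0.51). Day 3 replicate 3 was the low library of both, and without it the differences were 0.0435 and -0.0860. The differences were -0.09 (95% interval -0.52 to 0.33) for miR-33a-3p and -0.18 (95% interval -0.46 to 0.09) for miR-33b-3p. Across 539 miRNAs tested, 8.53% were called higher and 6.31% lower on day 5.

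By day 7, miR-33a-5p reached 9.27, 9.30 and 9.14, above all libraries of day 3, a difference of 0.73 (SE 0.15, adjusted p = 0.0050, limma with Benjamini-Hochberg adjustment). miR-33b-5p reached 9.67, 9.76 and 9.65, a difference of 0.60 (SE 0.17, adjusted p = 0.0169, limma). miR-33a-3p, at 5.60, 5.51 and 4.99 on day 3, was at 6.12, 6.09 and 5.83 on day 7, a difference of 0.65 (SE 0.17, adjusted p = 0.0140, limma). miR-33b-3p, at 8.81, 8.84 and 9.07 on day 3, was at 8.56, 8.52 and 8.46 on day 7, and fell by 0.40 (SE 0.11, adjusted p = 0.0165, limma). On this scale the arms of miR-33b moved in opposite directions. Without day 7 replicate 2 the calls of miR-33a-3p, miR-33b-5p and miR-33b-3p were lost, with adjusted p-values of 0.0501, 0.0579 and 0.0582 (limma), and without day 7 replicate 3 that of miR-33b-3p was lost (adjusted p = 0.0631, limma).

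The day 7 rise depends on the scale. Of 559 miRNAs tested on day 7, 45.3% were called higher and 8.41% lower, and the median over all of them was 0.30. Scaled by library totals instead, that median was -0.20, and the differences of miR-33a-5p, miR-33a-3p and miR-33b-5p became 0.23, 0.15 and 0.10, with adjusted p-values of 0.0682, 0.320 and 0.399 (limma), while the difference of miR-33b-3p became -0.90 (adjusted p = 0.0053, limma). Whole transcriptome values of day 7 were not analysed here, so the hosts have no value on that day. ABCA1, named here after its value was seen, was low and went from a mean signal of 75.8 on day 3 to 121 on day 5 (log2 0.69, SE 0.21, adjusted p = 0.0292, limma), a call lost under 3 of 12 alternatives.

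**Figure D5:**
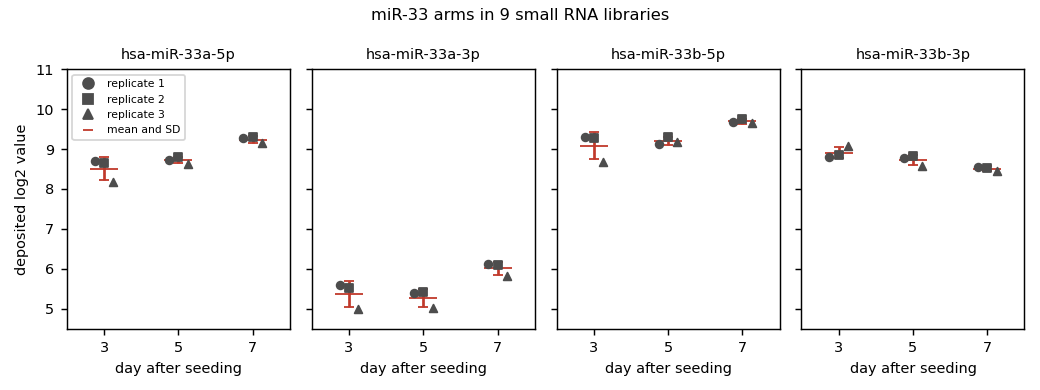
Deposited log2 values of the 4 mature arms of miR-33a and miR-33b in 9 small RNA libraries, 3 each on days 3, 5 and 7, with the mean and SD in red. The 5p arms sit higher on day 7 than on day 3, with means of 9.24 against 8.51 for miR-33a-5p and 9.69 against 9.09 for miR-33b-5p.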

How the data were processed

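RNA from HCT116 cells was sequenced after rRNA depletion. According to their methods, the authors mapped reads by strand to genes of Ensembl release 99 on hg38 and normalized by TMM in CLC Genomics Workbench 23.0.3. The deposited signal per gene and library is a normalized count: all values were whole multiples of 1 read (tolerance 0.1), so reads were recovered for 100% of values. Total reads per library are given with the results, and intervals between days reflect 3 replicates a day. The authors deposited small RNA values as log2, after trimming and mapping to mature and hairpin miRNAs. Their methods describe these data as counts normalized by TMM. The methods state a range of reads for these libraries, but the tables hold no reads per library. How the values were transformed to log2 is not given in the sources used here. Columns with the authors' own fold changes and p-values were not used.

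limma (3.58.1, R 4.3.3) was fitted to log2(signal + 1), or to the log2 miRNA values, over all features that reached 10 in 3 or more of the 6 libraries, with Benjamini-Hochberg adjustment and a threshold of 0.05. A fold change on this scale understates that of low genes. edgeR 4.0.16 and DESeq2 1.42.0 were run on recovered reads as alternatives, beside library totals, no filter, a pseudocount of 0.1, a replicate block and leaving out each library. Tested on simulated data of 20071 genes, the day 5 against day 3 fit recovered 75% of 196 genes changed 2-fold, with 6 false calls. The simulation used 1 common dispersion and changed far fewer genes than were called in the real data. The 75% therefore does not give the power of the real fit.

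Genes named were all members, and in each further list the 2 genes with the largest rise and fall, or all where 5 or fewer were called. The members and lists were chosen with earlier results of these data known. Gene models were from GENCODE release 44, and sequences from RefSeq on GRCh38.p14. Exon length counted each base in any annotated exon of a gene once, so it can exceed that of the main transcript. Some steps of the pathway and a gene of 1 further list are not reported here.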

Additional observations from a re-analysis of the deposited data

How the results depend on the processing

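The number of genes of the set called higher was 17 to 22 under every alternative, against 20, and their median log2 fold change kept its direction. The number called lower was 2 with DESeq2 and 3 with edgeR, against 1, and 1 to 2 on leaving out a library. Of 324 comparisons of a gene with an alternative, 300 kept direction and call, 14 lost the call (FDPS, FDFT1 and PMVK), 10 gained it (ACAT2, IDI1, NSDHL and EBP) and 0 reversed. edgeR called 12280 genes in all and DESeq2 11110, against 11450. Library totals raised the share of calls that were higher from 51.5% to 56.2%.

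Same-numbered libraries of the 2 days deviated from their day means with correlations of -0.01, 0.03 and 0.02 across genes. No pairing by number was seen. The labels do not say whether a number marks a shared culture, and this check cannot exclude it. With a replicate block, 18 genes of the set were called higher and 1 lower, and 10533 of all genes were called.

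For miRNAs, leaving out a library gave day 5 differences of -0.28 to 0.0397 for miR-33a-3p, which turned positive without day 3 replicate 1 (0.0246) or day 5 replicate 3 (0.0397), of 0.0435 to 0.31 for miR-33a-5p, and of -0.0860 to 0.22 for miR-33b-5p, which turned negative without day 3 replicate 3. On day 7, library totals gave 0.23 for miR-33a-5p, 0.15 for miR-33a-3p and 0.10 for miR-33b-5p, none past the threshold. With no filter the differences of 0.73, 0.65, 0.60 and, for miR-33b-3p, -0.40 stood but did not pass. Leaving out a library gave 0.46 to 0.77 for miR-33a-3p, 0.40 to 0.71 for miR-33b-5p and -0.44 to -0.31 for miR-33b-3p, with the calls of all 3 lost without day 7 replicate 2 and that of miR-33b-3p also without day 7 replicate 3. The cause was not tested. Counting error of the small RNA values could not be given, since the tables hold no reads per library.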
